A study of Homo sapiens with 6 samples.

Results

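The expressed solute carrier genes of Hep G2 cells are described here, that is, the genes whose symbol begins with SLC and a digit and whose level in total RNA of non-transfected cells was at least 1 RPKM (reads per kilobase of gene, scaled to the mapped reads of the library). Of 358 such symbols in the list of 21863, 192 (53.6%) reached that level, and they made up 1.76% of the 10883 genes that did. The members were chosen by these measured RPKM values in the total RNA library of non-transfected cells, so their levels there, and every difference from that library, are given as a description. By name 187 of them are transporters. The other 5 carry an SLC symbol without being one: *SLC9A3R1* and *SLC9A3R2* are scaffold proteins that bind a sodium/proton exchanger, *SLC4A1AP* is an adaptor protein, *SLC2A4RG* is a transcription factor, and *SLC7A6OS* lies on the strand opposite *SLC7A6*.

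Hep G2 is an established human liver cancer cell line in which the study looked for mRNAs bound and lowered by *miR-195* and *miR-497*. Cells received a synthetic *miR-195* mimic or a synthetic *miR-497* mimic, each at 5 nM for 24 hours, or were not transfected, for which the labels give 0 hours. In each of the 3 conditions total RNA was sequenced (mRNA-seq), and so was RNA recovered by immunoprecipitation of Argonaute 2 (Ago2-IP-seq), the protein that holds miRNAs on their targets. There was 1 library for each condition and fraction, 6 in all, so no comparison has a replicate and no test was possible, and because the control cells were not given a control RNA the mimic and the transfection itself cannot be told apart.

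Solute carriers are membrane proteins that move sugars, amino acids, ions, metals, nucleotides and other small solutes across the plasma membrane and the membranes of mitochondria, lysosomes and the Golgi apparatus. In the liver they bring in glucose, amino acids, fatty acids, citrate and bile acids and send glucose, iron and lactate out. A miRNA in Argonaute pairs through its seed, the bases near its 5′ end, with sites mostly in the 3′UTR of an mRNA, and such pairing is known to lower the mRNA or its translation.

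Both miRNAs are shown because they share the seed on which the search for target sequences rests. The sequences are the RefSeq mature forms, on the minus strand of chromosome 17 at chr17:7017667-7017687 and chr17:7017979-7017999 of GRCh38.p14. Capitals mark the seed, positions 2 to 8 from the 5′ end.
hsa-miR-195-5p: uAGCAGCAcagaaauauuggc
hsa-miR-497-5p: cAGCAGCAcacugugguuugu
Counted from the 5′ end, the bases were equal at 12 of 21 positions, which include the whole seed. The matching sequence in an mRNA is TGCTGCT for both, searched on the transcribed strand of every annotated 3′UTR, with overlapping places counted separately.

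The depth behind the members differed between the fractions. The steps between RPKM values gave estimates of 23900000 to 30000000 mapped reads in the total RNA libraries and 10300000 to 16300000 in the Ago2-IP libraries, and read numbers could be inferred for 173 of the 192 members. The median member had 730 to 997 reads in total RNA. In Ago2-IP it had 145 reads without transfection, 196 after *miR-195* and 77 after *miR-497*, and 23 members were under 20 reads in the last of these. Intervals below are 95% counting intervals on the log2 scale from these reads. They cover counting error only, and variation between cultures is not in them. Of 9 liver marker genes all were detected in total RNA of non-transfected cells, from *TTR* at 1.53 to *AFP* at 4884 RPKM, with *HNF4A* at 40. Of 9 markers of blood, endothelial, stromal and squamous cells 5 were listed at 0 there and the highest was *LYVE1* at 0.970.

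The levels of the members in total RNA of non-transfected cells spanned a wide range and were concentrated in a few genes. A level of at least 100 RPKM was seen for 7 members, 89 lay from 10 to 100 and 96 from 1 to 10, and the median was 9.96 against 11.3 for all 10883 genes. The 5 highest held 31.7% of the summed RPKM and the 15 highest held 50.5%. All 192 were above 0 in all 6 libraries, and 191 stayed at 1 or more in all 3 total RNA libraries. Just inside the threshold were *SLC12A8* at 1.0, *SLC25A29* at 1.06 and *SLC45A3* at 1.23, and just outside it *SLC10A5* at 0.982, *SLC38A4* at 0.954 and *SLC29A2* at 0.868. Of the 166 symbols under 1, 35 were listed at 0 in every library. *SLC25A6*, an ADP/ATP carrier, was among those listed at 0. Whether its reads could be placed uniquely in the genome was not checked, so its 0 does not show that the gene is silent.

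Sugar carriers held the highest level and a low median. *SLC2A1* (GLUT1), the glucose transporter of proliferating cells, stood first with 476 RPKM without transfection, 480 after *miR-195* and 535 after *miR-497* in total RNA, and with 75, 119 and 53.7 in Ago2-IP. *SLC2A3* (GLUT3), a high-affinity glucose transporter, had 145, 186 and 137 in total RNA. *SLC2A2* (GLUT2), the glucose transporter of hepatocytes, had 49, 39.5 and 32.7. These 3 stood above most of the group: the 16 members in the sugar families had a median of 4.17 and a lowest level of 1.23. For *SLC2A3* 41.4% of the 36-base windows of its exons occur elsewhere in the genome, and 42.9% for its near copy *SLC2A14*, so reads of the pair may have been divided between them.

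Amino acid carriers formed a broad set of 25 with a median of 14.1 RPKM. *SLC38A2* (SNAT2), a sodium-coupled neutral amino acid transporter, was second of all members with 320, 380 and 258 RPKM in total RNA without transfection, after *miR-195* and after *miR-497*. *SLC7A5* (LAT1) and *SLC3A2* (4F2hc), the 2 chains of a leucine transporter, stood at 69.9 and 59.4 in non-transfected cells, and *SLC1A5* (ASCT2), a glutamine transporter, at 60.6. *SLC7A11*, the cystine/glutamate exchanger, was at 24.0.

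Mitochondrial carriers, the SLC25 family, were the largest group, with 34 members, a median of 12.7 and 21% of the summed RPKM. *SLC25A5*, an ADP/ATP carrier, had 231, 224 and 271 RPKM in total RNA, and *SLC25A3*, the phosphate carrier, had 227, 211 and 220. Repeated windows make up 28.2% of *SLC25A5*. *SLC25A39*, a carrier needed for mitochondrial glutathione, had 79.3, 83.7 and 128.

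Among 24 carriers of zinc and other metals the median was 13.5. *SLC39A14* (ZIP14), which takes up zinc and iron in liver, had 225, 240 and 222 RPKM in total RNA. *SLC39A7* (ZIP7), which releases zinc from the endoplasmic reticulum, had 112, 115 and 132. *SLC40A1* (ferroportin), the iron exporter, had 22, 22.9 and 15.5.

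The 18 members of SLC35, mostly nucleotide sugar carriers of the endoplasmic reticulum and Golgi, had a median of 14.1 and were led by *SLC35B1* at 85.2 and *SLC35D2* at 75.4. Of 7 monocarboxylate carriers, *SLC16A3* (MCT4), a lactate exporter, stood at 75.3 and *SLC16A1* (MCT1), a lactate and pyruvate carrier, at 74.1, while the group's median was 6.15. The 22 inorganic ion carriers had a median of 4.45 and were led by *SLC20A1*, a phosphate transporter, at 75.3. The 10 carriers of organic ions, bile acids and drugs had a median of 4.99 and a highest level of 15.1, that of *SLC47A1*, which exports organic cations. Smaller groups were 13 carriers of lipids, choline and vitamins (median 8.02), 9 of organic anions and phosphate (7.68), 5 of neurotransmitters and amino acids (4.43) and 3 of nucleosides (22.6), beside *SLC18A2*, a vesicular monoamine transporter, at 4.0.

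**Figure D1:**
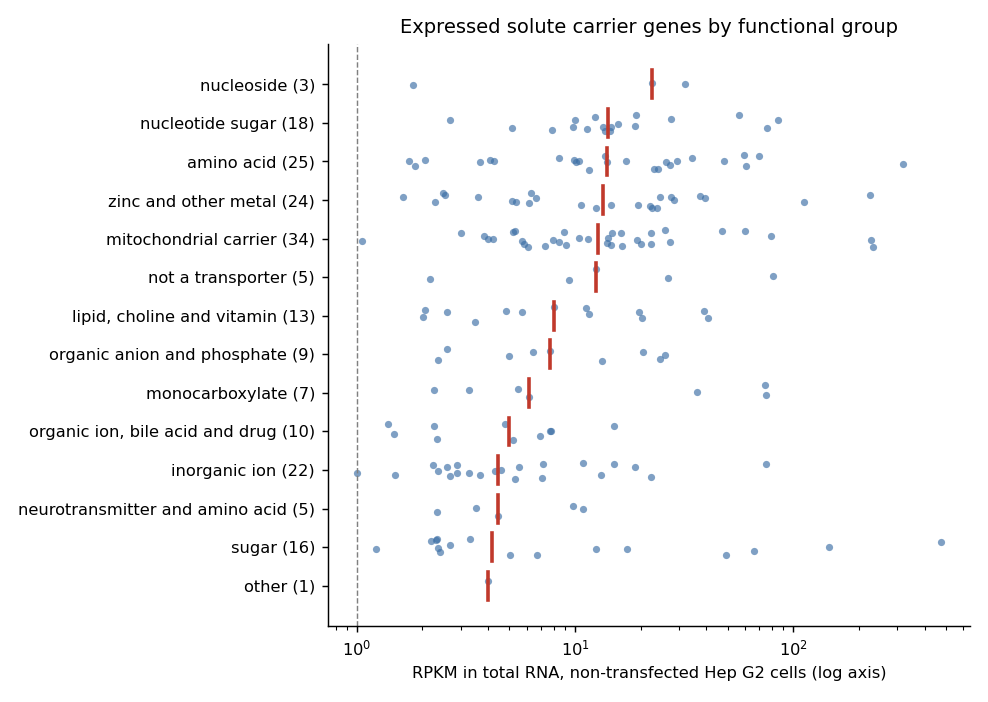
Each point is 1 of the 192 members, placed by its RPKM in total RNA of non-transfected cells on a log axis. Rows are functional groups by SLC family with their number of members, red bars are group medians, and the dashed line is the threshold of 1 RPKM. The highest point is *SLC2A1* at 476, in a group whose median was 4.17, while mitochondrial, metal, amino acid and nucleotide sugar carriers had medians from 12.7 to 14.1.

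The carriers known for the liver were divided around the threshold. Of a list of 17, 12 were members. *SLC10A1* (NTCP), which takes up bile acids, had 0.124 RPKM, *SLC22A7* (OAT2), an organic anion uptake carrier, 0.373, *SLC30A10*, a manganese exporter, 0.623, and *SLC38A4*, an amino acid carrier, 0.954. Above it were *SLC25A13* (citrin), a mitochondrial aspartate/glutamate carrier of the urea cycle, at 46.9, *SLC13A5*, the citrate transporter, at 24.5, *SLC37A4*, the glucose 6-phosphate carrier of the endoplasmic reticulum, at 20.4, *SLC25A15*, the ornithine carrier, at 19.2, *SLC38A3*, a glutamine transporter, at 17.1 and *SLC27A2*, a fatty acid transporter, at 11.6. *SLC27A5*, a bile acid ligase, and *SLC22A9*, an organic anion carrier, were at 2.02 and 1.38. Of the 12 members 0 were 2-fold higher or lower in total RNA with either mimic, where 0.984% and 1.3% of all genes were so after *miR-195* and 1.57% and 0.368% after *miR-497*. At those shares a count of 0 in 12 is near the background.

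Ago2-IP RPKM of non-transfected cells was a median 27.5% of total RNA RPKM over the members, against 27.2% over all genes. The range was wide, from 7.07% for *SLC50A1*, a sugar carrier, to 145% for *SLC16A4*, a monocarboxylate family member, and *SLC16A4* was the only member above 100%. The next highest were *SLC44A5*, a choline transporter-like protein, at 84.3% and *SLC40A1* at 82.2%. These extremes were chosen after their values were seen. Group medians ran from 22.8% in lipid, choline and vitamin carriers to 43.6% in carriers of organic ions, bile acids and drugs, among groups of at least 7. After *miR-195* the medians of members and of all genes were 47.2% and 40.3%, and after *miR-497* 22.3% and 21.1%. Without transfection, genes whose reads could be inferred held 3331755 of an estimated 16300000 mapped reads in Ago2-IP. In total RNA they held 17358656 of 23900000. These percentages thus depend also on how much of each library fell in genes, and are not the part of an mRNA held in Ago2.

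In total RNA few members changed 2-fold with a mimic. Here and below, rose and fell are used of members at least 2-fold higher or lower. After *miR-195* 4 members rose and 1 fell out of 192, when 0.984% and 1.3% of all 10876 genes with values did so. After *miR-497* 5 rose and 1 fell, against 1.57% and 0.368% of all genes. The member counts come from the contrast that chose the members and are given only beside this background. With a pseudocount of 1 RPKM the members that rose were 1 after *miR-195*, *SLC2A6*, and 2 after *miR-497*, *SLC2A6* and *SLC43A2*, while *SLC11A2* fell with both. The share of all genes with that pseudocount is not given. The median log2 difference of the members was 0.01 after *miR-195* and 0.11 after *miR-497*, and of all genes -0.01 and 0.04. Both comparisons use the same non-transfected library.

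*SLC11A2* (DMT1), which carries ferrous iron across the plasma and endosomal membranes, was the member that fell with both mimics. Its total RNA RPKM was 14.5 without transfection, 5.11 after *miR-195* and 6.14 after *miR-497*. The log2 differences were -1.51 (-1.63 to -1.39) and -1.24 (-1.36 to -1.13). Its level was thus lowest after *miR-195*, and the 2 intervals against non-transfected cells did not reach 0. In Ago2-IP it had 5.88, 4.60 and 3.58 RPKM. The gene lies at chr12:51373184-51422349 on the minus strand of GRCh37, the assembly also called hg19, and no repeated windows were found in its exons. Its 3′UTR holds TGCTGCT at 3 separate places, shown here because *SLC11A2* had the largest falls. All 3 windows are 3′UTR sequence of GRCh37 (GENCODE 44), read on the minus strand, and capitals mark the 7 bases, at chr12:51381873-51381879, chr12:51380882-51380888 and chr12:51379930-51379936 from 5′ to 3′ in the mRNA.
SLC11A2 place 1: gaaaagctgacattTGCTGCTatca
SLC11A2 place 2: cttcagcacaaagcTGCTGCTttta
SLC11A2 place 3: acatgaaataattgTGCTGCTacat
At the first and the third place the 7 bases are followed by A, the base opposite position 1 of a miRNA.

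Of the members that rose, 3 did so with both mimics, 1 of which, *SLC2A6*, also did with a pseudocount of 1 RPKM. *SLC2A6* (GLUT6), a glucose transporter of inner membranes, had 2.35 RPKM without transfection, 6.95 after *miR-195* and 7.19 after *miR-497* in total RNA, log2 differences of 1.56 (1.30 to 1.83) and 1.61 (1.35 to 1.87). *SLC43A2* (LAT4), which carries large neutral amino acids, had 3.68, 7.87 and 9.56, log2 differences of 1.10 (0.895 to 1.30) and 1.38 (1.18 to 1.57). *SLC25A29*, a mitochondrial carrier of basic amino acids, had 1.06, 2.55 and 2.47, log2 differences of 1.27 and 1.22. The levels with either mimic lay apart from the non-transfected level in these 3 genes, and *SLC25A29* stood just inside the threshold by which members were chosen.

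*SLC48A1* (HRG1), which moves haem out of lysosomes, rose after *miR-195* alone, with 2.29, 4.64 and 3.35 RPKM, a log2 difference of 1.02 (0.762 to 1.28) after *miR-195* and 0.55 (0.282 to 0.821) after *miR-497*. *SLC16A5* (MCT6), a monocarboxylate family member, had 2.27, 4.5 and 4.76 and *SLC9A3R2* had 2.17, 3.90 and 4.94. These last genes passed 2-fold after *miR-497*, at log2 differences of 1.07 and 1.18, and had 0.99 and 0.84 after *miR-195*. Of these 6 genes *SLC43A2* alone has a target sequence among those with an annotated 3′UTR, and *SLC9A3R2* was not matched to the annotation.

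**Figure D2:**
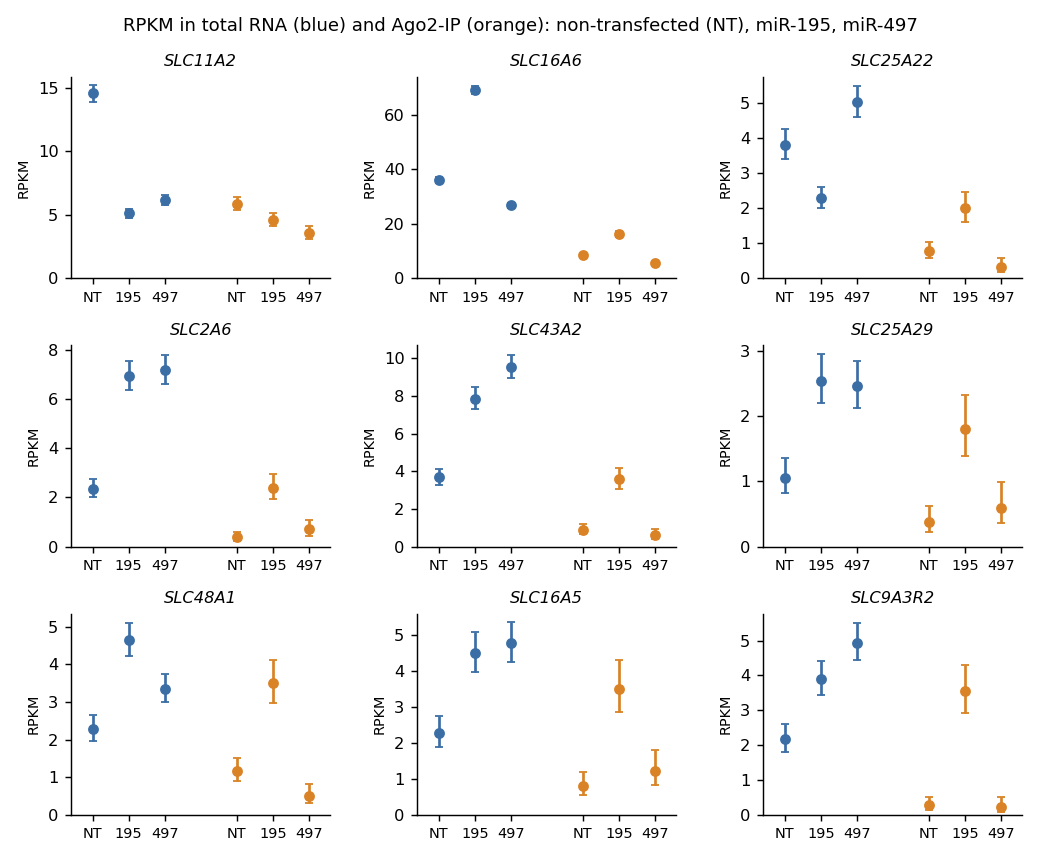
RPKM in each of the 6 libraries for the 9 members at least 2-fold apart in a comparison of total RNA libraries. Blue points are total RNA, orange points Ago2-IP, and bars are 95% counting intervals; each y axis starts at 0. *SLC11A2* drops from 14.5 to 5.11 and 6.14 in total RNA, *SLC2A6* climbs from 2.35 to 6.95 and 7.19, and *SLC16A6* moves apart between the mimics at 69.0 and 26.9.

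Falls smaller than 2-fold after *miR-195* included those of *SLC7A2*, a carrier of cationic amino acids, with 34.3, 19.4 and 23.8 RPKM in total RNA (log2 difference -0.82 after *miR-195*), *SLC13A5* with 24.5, 14.7 and 23.6 (-0.74), and *SLC19A2*, a thiamine transporter, with 19.7, 11.8 and 14.8 (-0.74). After *miR-497* falls of this size included those of *SLC18A2* with 4.0, 2.48 and 2.29 (-0.80 after *miR-497*), *SLC39A10*, a zinc importer, with 10.6, 7.14 and 6.84 (-0.64), and *SLC38A9*, an amino acid sensor of lysosomes, with 11.5, 7.16 and 7.67 (-0.59). *SLC7A2*, *SLC13A5*, *SLC39A10* and *SLC38A9* hold a target sequence, and *SLC19A2* and *SLC18A2* do not.

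By group, the median log2 differences in total RNA after *miR-195* lay between -0.24 in organic anion and phosphate carriers and 0.29 in monocarboxylate carriers, among groups of at least 7. After *miR-497* they lay between -0.03 in mitochondrial carriers and 0.54 in monocarboxylate carriers. No group moved 2-fold as a whole. The 9 members of a list of amino acid response genes driven by the transcription factor ATF4, which include *SLC7A11*, *SLC7A5*, *SLC3A2* and *SLC1A5*, held 0 that changed 2-fold in any comparison, with medians of -0.13 and 0.06 in total RNA after *miR-195* and *miR-497*. From 0.193% to 7.38% of all genes changed in one direction of one comparison, and there a count of 0 in 9 is near the background. No share is given over all comparisons together, so nothing is drawn from the 0 across them. *SLC7A5* lay just under 2-fold after *miR-195*, at 0.98 in Ago2-IP and 0.995 in the fold enrichment score described below. It passed 2-fold in both with a pseudocount of 1 RPKM.

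Between the mimics, 1 member was higher and 1 lower after *miR-195* than after *miR-497* by 2-fold in total RNA, against 0.193% and 0.736% of all 10874 genes. The higher was *SLC16A6* (MCT7), a carrier of ketone bodies, with 36.1 RPKM without transfection, 69.0 after *miR-195* and 26.9 after *miR-497*. Its log2 difference between the mimics was 1.36 (1.30 to 1.42), and its non-transfected level lay between those with the mimics. It lies at chr17:66263167-66287408 (GRCh37, minus strand), and 29.8% of its 36-base windows are repeated, so part of its reads may belong to a copy. The lower was *SLC25A22*, a mitochondrial glutamate carrier, with 3.81, 2.29 and 5.02 RPKM and a log2 difference of -1.14 (-1.36 to -0.905), which did not reach 2-fold with a pseudocount of 1 RPKM.

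Next in this comparison, among members with at least 20 inferred reads in both libraries, were *SLC25A24*, a mitochondrial ATP-Mg/phosphate carrier, with 11.8 RPKM after *miR-195* and 7.53 after *miR-497*, *SLC40A1* with 22.9 and 15.5, and *SLC38A2* with 380 and 258. On the other side were *SLC39A4* (ZIP4), a zinc importer, with 12.7 and 21.8, *SLC16A3* with 64 and 109, and *SLC45A3*, a sugar carrier, with 0.786 and 1.38. The log2 differences were 0.65, 0.56 and 0.56 for the first 3 and -0.78, -0.77 and -0.82 for the others. Over all members the median was -0.12, and it was -0.08 over all genes. Of the 9 genes of the ATF4 list 7 were lower after *miR-195* than after *miR-497*, with a median of -0.31, and so were 122 of all 192 members.

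Ago2-IP values are given relative to the median of all genes, because that median itself moved, by 0.50 on the log2 scale after *miR-195* and by -0.25 after *miR-497* as deposited. After *miR-195* 18 members rose and 5 fell, against 7.35% and 4.13% of all 10857 genes. As shares of the 192 members these were 9.38% and 2.6%. The median member lay 0.22 above the median gene, and 124 of 192 were above it. After *miR-497* 4 rose and 4 fell, or 2.08% each, against 1.65% and 2.29% of 10824 genes, and the median member was at 0.03. With a pseudocount of 1 RPKM 10 rose and 0 fell after *miR-195*, and 0 in either direction after *miR-497*. Among members with at least 1 RPKM in both libraries the counts were 10 and 2, and again 0 and 0. Shares of all genes are not given at these settings. This Ago2-IP contrast does not use the library by which the members were chosen. Of the 18 that rose after *miR-195*, 4 had under 20 reads in a library, and of the 4 that rose after *miR-497*, 2 had. A difference in Ago2-IP can come from the amount of the mRNA as well as from the part of it bound.

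In Ago2-IP after *miR-195* the largest rises with enough reads were in carriers of different substrates. *SLC25A20*, which brings acylcarnitines into mitochondria, had 0.668 RPKM in Ago2-IP without transfection, 3.38 after *miR-195* and 1.41 after *miR-497*. *SLC39A4* had 2.09, 10.4 and 1.30, and *SLC17A5* (sialin), which exports sialic acid from lysosomes, had 3.28, 15 and 4.22. Relative to the median gene the log2 differences after *miR-195* were 1.84 (1.15 to 2.53), 1.80 (1.47 to 2.13) and 1.69 (1.46 to 1.93). *SLC25A20* rests on 21 reads in the non-transfected library, and its interval is the widest of the 3.

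*SLC16A5* had 0.803, 3.51 and 1.22 RPKM in Ago2-IP, and the 3 genes that rose in total RNA with both mimics rose here after *miR-195* too: *SLC2A6* had 0.373, 2.39 and 0.701, *SLC43A2* 0.891, 3.57 and 0.594, and *SLC25A29* 0.376, 1.80 and 0.594. *SLC2A6* and *SLC25A29* had under 20 reads in a library of this comparison. With a pseudocount of 1 RPKM *SLC16A5*, *SLC2A6*, *SLC43A2* and *SLC25A29* did not reach 2-fold here. The largest log2 difference of all was that of *SLC9A3R2*, at 3.20 (2.26 to 4.13), with 0.273, 3.55 and 0.216 RPKM from 10, 105 and 5 reads. On the other side, *SLC16A4* had 4.75, 3.05 and 3.53 RPKM, a log2 difference of -1.14 (-1.48 to -0.80), and *SLC25A40*, a second carrier needed for mitochondrial glutathione, had 2.66, 1.82 and 1.82, a log2 difference of -1.05 (-1.46 to -0.643). *SLC35A1*, the CMP-sialic acid carrier, and *SLC36A4*, an amino acid carrier, were at -0.95 and -0.97.

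After *miR-497* the Ago2-IP values that rose most with enough reads were those of *SLC50A1*, with 0.885 RPKM without transfection and 1.957 after *miR-497*, a log2 difference of 1.4 (0.57 to 2.23), and *SLC25A20*, at 1.33 (0.511 to 2.14). They rest on few reads, 20 and 28 for *SLC50A1* and 21 and 28 for *SLC25A20*, and neither rose with a pseudocount of 1 RPKM. *SLC12A8*, an ion cotransporter family member, and *SLC35A2*, the UDP-galactose carrier, were at 0.96 and 0.88. *SLC19A1*, the reduced folate carrier, fell from 1.68 to 0.695 RPKM, a log2 difference of -1.02 (-1.71 to -0.324). *SLC35A4*, *SLC9A3R1* and *SLC29A3*, a lysosomal nucleoside carrier, were at -0.63, -0.60 and -0.56.

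**Figure D3:**
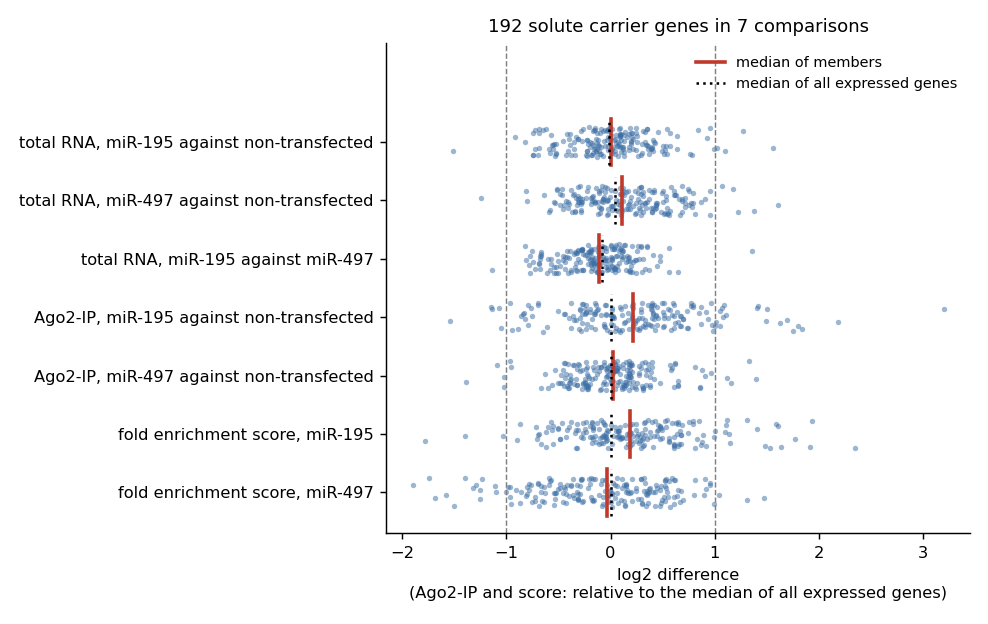
The log2 difference of each of the 192 members (points) in 7 comparisons, with the median of the members (red bars) and of all expressed genes (dotted bars). Dashed lines mark 2-fold; the Ago2-IP and score rows are relative to the median of all expressed genes. The member median lies at 0.22 in Ago2-IP and 0.19 in the score after *miR-195*, and at 0.03 and -0.03 after *miR-497*.

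The fold enrichment score divides the ratio of Ago2-IP to total RNA with a mimic by the same ratio without transfection. It asks whether an mRNA stood higher in Ago2-IP for its amount. Total RNA with the mimic is in the divisor, so a lower value there raises the score by definition. The median score was 1.61 after *miR-195* and 0.811 after *miR-497* over the members, against 1.42 and 0.829 over all genes. Relative to these all-gene medians, 16 members were at least 2-fold higher and 3 lower after *miR-195*, against 6.72% and 2.22% of 10856 genes, and 3 higher and 14 lower after *miR-497*, against 2.13% and 7.38% of 10823 genes. In shares of the members these are 8.33%, 1.56%, 1.56% and 7.29%. With a pseudocount of 1 RPKM the counts were 10 and 1 after *miR-195* and 1 and 2 after *miR-497*, with no share of all genes given at that setting. The top 10% of all scores held 25 members (13%) after *miR-195* and 23 (12%) after *miR-497*. The 2 scores share the non-transfected libraries and use the library that chose the members.

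After *miR-195* the highest scores with enough reads belonged to *SLC17A5* and *SLC15A4*, both carriers of lysosomal membranes. *SLC17A5* had 13.3 RPKM in total RNA without transfection and 11.3 after *miR-195*, beside 3.28 and 15 in Ago2-IP, a score of 5.39. *SLC15A4*, a lysosomal carrier of peptides and histidine, had 7.77 and 5.83 in total RNA, beside 2.15 and 8.58 in Ago2-IP, a score of 5.32. Relative to the median gene the log2 scores were 1.93 (1.66 to 2.19) and 1.91 (1.54 to 2.27). In both genes total RNA was lower after *miR-195* by less than 2-fold while Ago2-IP was higher by more.

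*SLC39A4* followed with a score of 4.86, from 12.4 and 12.7 RPKM in total RNA beside 2.09 and 10.4 in Ago2-IP. *SLC16A3* had 75.3 and 64 beside 8.67 and 32.7, a score of 4.43. These are genes of moderate and high level, and *SLC16A3* has 327 and 997 Ago2-IP reads behind its values. *SLC25A22* (4.32), *SLC27A4*, a fatty acid transporter (4.28), *SLC19A2* (4.10), *SLC25A20* (3.96) and *SLC37A4* (3.51) came next among members with enough reads. The score of *SLC9A3R2* was 7.23, from 10 Ago2-IP reads in non-transfected cells.

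Among members with at least 20 inferred reads in all 4 libraries, the lowest scores after *miR-195* were those of *SLC16A4*, with 3.28 and 5.09 RPKM in total RNA beside 4.75 and 3.05 in Ago2-IP, a score of 0.413, and of *SLC44A5*, with 5.74 and 6.64 beside 4.84 and 3.90, a score of 0.696. Both had a high ratio of Ago2-IP to total RNA without transfection, and in both the Ago2-IP value was lower and total RNA higher after *miR-195*. The non-transfected ratio is the divisor of the score, so a high ratio lowers the score by definition. A lower Ago2-IP value and a higher total RNA value do so too, and nothing is drawn from these links. *SLC22A9* and *SLC35A1* had scores of 0.761 and 0.778.

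After *miR-497* the highest score with enough reads was that of *SLC38A9*, with 11.5 and 7.67 RPKM in total RNA beside 2.06 and 3.15 in Ago2-IP, a score of 2.29 and a log2 score of 1.47 (1.01 to 1.93) relative to the median gene. *SLC50A1* had a score of 1.71, *SLC18A2* 1.65 and *SLC17A5* 1.60. The lowest with at least 20 reads in all 4 libraries were *SLC19A1*, with 8.02 and 12 RPKM in total RNA beside 1.68 and 0.695 in Ago2-IP, a score of 0.278, and *SLC39A4*, with 12.4 and 21.8 beside 2.09 and 1.30, a score of 0.353. *SLC39A5*, a zinc importer, and *SLC12A9*, an ion cotransporter family member, had 0.388 and 0.384. Of the 14 members 2-fold low after *miR-497*, 12 had inferred reads and 7 of those had under 20 in a library. *SLC10A3*, for example, at 0.222, rests on 69 and 14 Ago2-IP reads.

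*SLC39A4* and *SLC25A22* had scores on opposite sides of the median with the mimics, at 4.86 after *miR-195* and 0.353 after *miR-497*, and at 4.32 and 0.314. The second value of *SLC25A22* comes from 11 Ago2-IP reads. The difference between the mimics was not tested, since each has 1 library in each fraction, and the median depth of the members in Ago2-IP differed between them, at 196 and 77 reads.

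**Figure D4:**
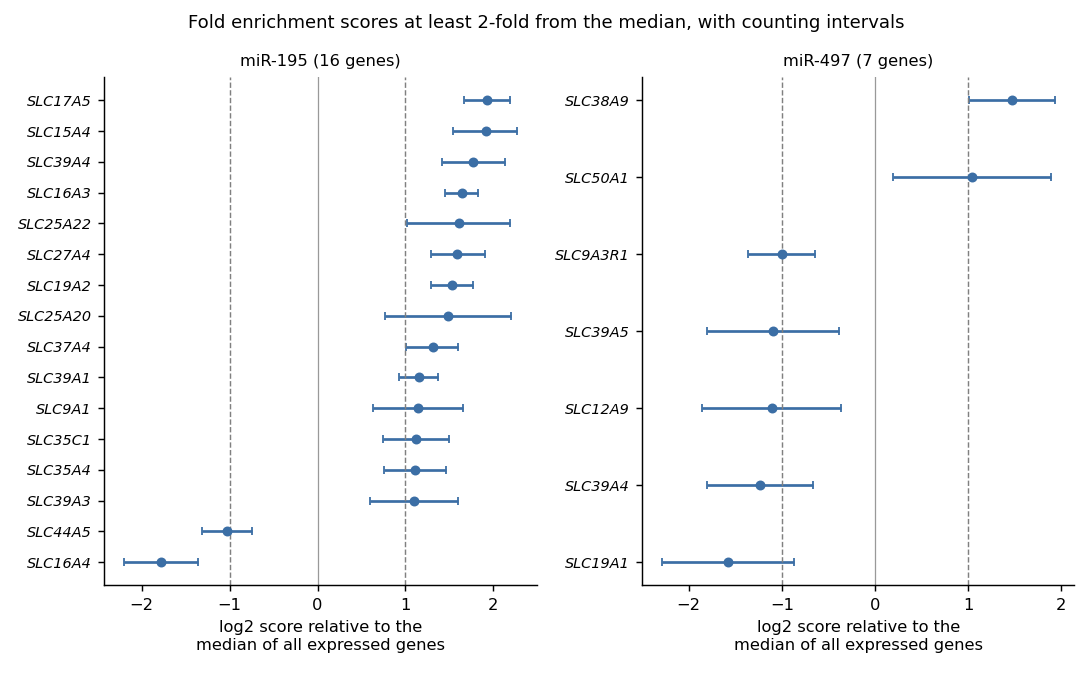
Log2 fold enrichment scores, relative to the median of all expressed genes, of the members at least 2-fold from that median with at least 20 inferred reads in all 4 libraries; bars are 95% counting intervals, dashed lines mark 2-fold. After *miR-195* *SLC17A5* stands highest at 1.93 and *SLC16A4* lowest at -1.78, and after *miR-497* *SLC38A9* stands highest at 1.47 and *SLC19A1* lowest at -1.58.

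A 3′UTR with TGCTGCT was annotated for 68 of the 189 members that could be matched (36%), against 2684 of 9231 expressed genes with an annotated 3′UTR (29.1%). The sequence stood at 98 places in these 68 genes, 18 of them followed by A, and 22 genes had at least 2 places. It was found in 14 of 25 amino acid carriers, 13 of 34 mitochondrial carriers, 8 of 18 nucleotide sugar carriers, 7 of 24 metal carriers and 2 of 13 carriers of lipids, choline and vitamins. Members with the sequence had a longer 3′UTR, with a median of 2580 bases for the longest form against 1466 without it. In 64 of the 68 a place lay in the 3′UTR of the canonical transcript.

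Members with the sequence had a lower median in total RNA with both mimics than members without it. After *miR-195* their median log2 difference was -0.17 and that of the other 121 members was 0.09, a gap of -0.26, and over all genes with and without the sequence the gap was -0.10. After *miR-497* the medians were -0.06 and 0.17, a gap of -0.23 against -0.09 over all genes. Individual members overlapped widely. Values below 0 were found for 47 of 68 members with the sequence and 47 of 121 without it after *miR-195*, and for 38 and 42 after *miR-497*. Among members whose longest 3′UTR had 1000 to 4000 bases, 37 with the sequence and 58 without, the gaps were -0.22 and -0.15, and over all genes in that range they were -0.09 and 0.01. The gaps also depended on the sequence searched. With 6 bases, those pairing with positions 2 to 7, they were -0.078 and -0.079, and with 8 bases, the 7 followed by A, -0.11 and -0.23. The part of 3′UTR length in the gaps was not tested further, and the 2 comparisons share the non-transfected library.

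The gaps in the scores were smaller. After *miR-195* the median log2 score was 0.19 with the sequence and 0.16 without it, a gap of 0.04 against 0.10 over all genes, and after *miR-497* the gap was 0.03 against 0.08. In the range of 1000 to 4000 bases the gaps were 0.096 against 0.21 over all genes after *miR-195*, and -0.071 against -0.047 after *miR-497*, where the sign turned. Among members with at least 1 RPKM in all 4 libraries the gap after *miR-195* was 0.12. In Ago2-IP alone, members with the sequence lay lower by 0.22 after *miR-195* and by 0.09 after *miR-497*, where the gaps over all genes were -0.02 and 0.02. The first of these gaps was -0.0072 with the 6-base and -0.0038 with the 8-base sequence, and the second was -0.054 and 0.11. Between the mimics in total RNA the gap was -0.05, against -0.03 over all genes.

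**Figure D5:**
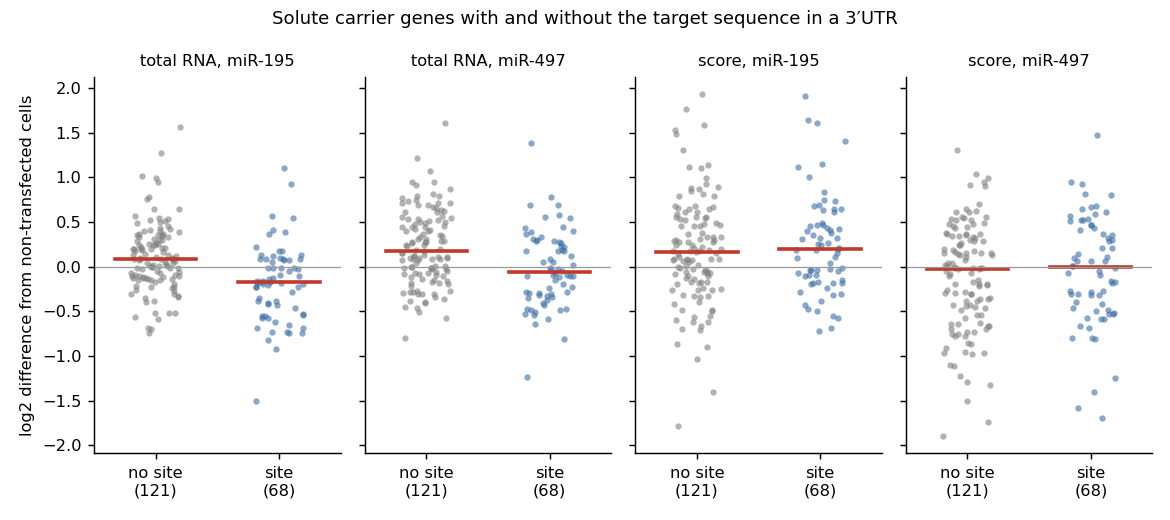
The log2 difference of members without (grey, 121) and with (blue, 68) the sequence in a 3′UTR, in total RNA and in the fold enrichment score for each mimic; scores are relative to the median of all expressed genes and red bars are medians. In total RNA the medians with the sequence are -0.17 and -0.06 against 0.09 and 0.17 without it, and in the scores they lie close together.

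Members with the sequence that had the highest scores for a mimic, among those with at least 20 inferred reads in all 4 libraries, are shown with their places, for comparison with *SLC11A2*. Windows are 3′UTR sequence of GRCh37 on the gene's strand with the 7 bases in capitals. They lie at chr12:129278148-129278154 (minus strand) for *SLC15A4*, chr17:80197099-80197105 (plus strand) for *SLC16A3*, chr11:790575-790581 (minus strand) for *SLC25A22*, chr1:153931821-153931827 (minus strand) for *SLC39A1*, chr5:139948319-139948325 (plus strand) for *SLC35A4*, chr16:87863861-87863867 (minus strand) for *SLC7A5* and chr5:54922236-54922242 (minus strand) for *SLC38A9*.
SLC15A4: aaacacatttcatcTGCTGCTtcaa
SLC16A3: ccaggggccccgccTGCTGCTccca
SLC25A22: agaaccttggaagcTGCTGCTgctg
SLC39A1: ttgcagccatctacTGCTGCTgtac
SLC35A4: tgccctctccacagTGCTGCTcccc
SLC7A5: gtcatgctcagcctTGCTGCTctgc
SLC38A9: aattcacttgtaaaTGCTGCTgttg
None of these 7 windows has an A after the 7 bases, and 18 of all 98 places in members do. Members next in score after *miR-497* are not in this list. Of them *SLC39A10*, *SLC12A2* and *SLC11A2* have a place followed by A, and *SLC41A2* and *SLC25A24* do not. *SLC20A2*, a phosphate transporter left out because its reads could not be inferred, had a score of 3.78 after *miR-195*, above those of *SLC39A1*, *SLC35A4* and *SLC7A5*, and its place is followed by A. It is named after its values were seen. The 3 places of *SLC25A22* overlap in a run of repeated GCT, of which the first is printed. *SLC39A1* has a second place, outside the 3′UTR of its canonical transcript.

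*SLC39A1* (ZIP1), a zinc importer of the plasma membrane, had 39.4 RPKM in total RNA without transfection, 26.9 after *miR-195* and 42.9 after *miR-497*, and a score of 3.15 after *miR-195*. *SLC35A4*, a member of the nucleotide sugar family, had 13.4, 9.21 and 15.3 and a score of 3.05. *SLC7A5* had 69.9, 69.0 and 85.4 in total RNA beside 12.1, 33.8 and 8.12 in Ago2-IP, and scores of 2.83 and 0.549. *SLC39A1* and *SLC35A4* were thus lower in total RNA after *miR-195* by log2 differences of -0.55 (-0.639 to -0.465) and -0.54 (-0.684 to -0.399), while the log2 difference of *SLC7A5* was -0.02 (-0.0612 to 0.0257), an interval that includes 0. These genes were picked by a score that lower total RNA raises by definition.

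After *miR-497* the members with the sequence that followed *SLC38A9*, with the same limit on reads, were *SLC41A2*, a magnesium transporter, with a score of 1.56, *SLC39A10* with 1.45, *SLC11A2* with 1.44, *SLC12A2* (NKCC1), the sodium-potassium-chloride cotransporter, with 1.33 and *SLC25A24* with 1.32. All 6 of these had lower total RNA values after *miR-497* than without transfection, with log2 differences from -1.24 for *SLC11A2* to -0.41 for *SLC12A2*. A lower total RNA value raises the score by definition, so a choice by high score favours such falls and nothing is drawn from them. For *SLC11A2* the log2 scores relative to the median gene were 0.65 (0.414 to 0.881) after *miR-195* and 0.80 (0.537 to 1.06) after *miR-497*. The only place found in *SLC25A24* lies outside the 3′UTR of its canonical transcript.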

How the data were processed

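Total RNA (mRNA-seq) and Ago2-IP-seq libraries of Hep G2 cells were analysed, 6 libraries in all. The authors mapped 36-base reads to hg19 with ELANDv2 and deposited RPKM values from CASAVA 1.7, 1 per gene and library. The gene annotation, the strand setting and the libraries with poly-A selection are not given in the sources used here, so genes on opposite strands cannot be told apart. Lines of repeated symbols were averaged (28 symbols).

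Differences are log2 ratios of RPKM above 0, with no pseudocount. Ago2-IP differences and scores are relative to the median of all genes with at least 1 RPKM in total RNA of non-transfected cells. Read numbers were inferred as the smallest whole numbers in the ratio of the RPKM steps, within 0.004 reads or, failing that, 0.012. The inference was run on simulated data with known reads and gene lengths, and the outcome is not reported here. That setting is easier than the deposited values, whose gene lengths are not given. Target sequences and 36-base windows came from GRCh37 and GENCODE 44. Functional groups follow SLC families, so *SLC5A6*, a vitamin carrier, counts under sugar. *SLC7A6OS* was set apart after its values were seen. The members and lists were chosen with earlier results of these data known. The genes named were the 15 highest, the 4 largest rises and falls in each comparison with at least 20 reads, the 6 highest scores with a target sequence and at least 20 reads for each mimic, listed liver and ATF4 genes, those nearest the threshold, and all that changed 2-fold in total RNA; a few genes these rules name are not reported here. Python 3.11.15, pandas 2.3.3 and pysam 0.24.0 were used.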

Additional observations from a re-analysis of the deposited data

How the results depend on the processing

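No paired analysis was possible because each condition has 1 library in each fraction, so the groups compared share fewer than 2 replicate numbers; the score sets both fractions of a condition side by side. Of 106 alternatives run, 36 moved a count by over 1.5 times or a median or gap outside its 95% interval. A turned direction was counted only for values of at least 2-fold. Counts have no sign and the medians and gaps were under 2-fold, so the 0 found says nothing about direction. Signs of smaller values did turn. With the 8-base sequence the total RNA gap between the mimics went from -0.049 to 0.1. The Ago2-IP gap after *miR-497* went from -0.085 to 0.11. As deposited, the Ago2-IP member median after *miR-497* went from 0.026 to -0.23. The intervals of the medians and gaps are not reported here. Those of the gaps are wide, so gaps that stayed inside them still changed in size or sign. The results below are counts of members at least 2-fold higher or lower unless a median is named. Shares of all genes are not given at these alternative settings, so the counts show only how the number of members moved.

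A pseudocount of 1 RPKM took the members that rose in total RNA from 4 to 1 after *miR-195* and from 5 to 2 after *miR-497*, and the members lower after *miR-195* than *miR-497* from 1 to 0. In Ago2-IP it left 10 higher and 0 lower after *miR-195* and 0 in each direction after *miR-497*. In the score it left 10 and 1 after *miR-195*, and 1 and 2 after *miR-497*. An RPKM of at least 1 in every library left 10 higher and 2 lower in Ago2-IP after *miR-195*, 0 and 0 after *miR-497*, and in the *miR-497* score 1 and 4. At least 20 inferred reads left 2 lower in Ago2-IP after *miR-195*, 2 higher and 1 lower after *miR-497*, and 5 lower in the *miR-497* score.

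As deposited, without setting the median of all genes to 0, Ago2-IP after *miR-195* had 58 higher, 1 lower and a member median of 0.72. After *miR-497* it had 2 higher and a median of -0.23. The scores had 52 higher, 1 lower and a median of 0.69 after *miR-195*, and 30 lower and a median of -0.30 after *miR-497*. The median of all genes as deposited was 0.50 and -0.25 in Ago2-IP and 0.505 and -0.271 in the scores. These member counts thus include a shift of all genes and are not a result about the members. Relative to the median of all genes the total RNA median between the mimics was -0.034.

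For members with a target sequence minus those without, the gap in total RNA after *miR-195* was -0.078 for 6 bases and -0.11 for 8 bases, and after *miR-497* -0.079 and -0.23. In Ago2-IP after *miR-195* it was -0.0072 and -0.0038. For 8 bases it was 0.10 between the mimics and 0.11 in Ago2-IP after *miR-497*. In the *miR-497* score the gap went from 0.026 to -0.071 within the range of 3′UTR lengths. That range was an alternative chosen after seeing the data. The causes of the changes with target length were not tested. Small Ago2-IP read numbers, above all after *miR-497*, limit the values of low members.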

Other observations

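Some solute carrier genes under the threshold came above it with a mimic. *SLC26A9*, a chloride transporter, had 0.674 RPKM in total RNA without transfection, 4.99 after *miR-195* and 3.67 after *miR-497*, and 0.396, 3.28 and 0.998 in Ago2-IP. *SLC44A3* had 0.487, 1.02 and 0.690 in total RNA and *SLC5A10* had 0.717, 1.07 and 1.31. Genes that carry solutes or help carriers but have other symbols were looked at in a fixed list, of which 21 were listed and 13 had at least 1 RPKM in total RNA of non-transfected cells. Of the 13, 0 changed 2-fold in total RNA with either mimic, which is near the background of 0.368% to 1.57% of all genes in a direction. *BSG* (basigin), the partner of MCT1 and MCT4 at the membrane, had 150, 181 and 239 RPKM in total RNA. *SLCO1B1* and *SLCO1B3*, bile acid and drug uptake carriers of hepatocytes, were listed at 0 in all 6 libraries. *UCP2*, a mitochondrial carrier, had 2.38, 7.72 and 2.62 RPKM in Ago2-IP, a log2 difference of 1.19 after *miR-195* relative to the median gene. It was the 1 of the 13 higher there, against 7.35% of all genes. After *miR-497* the 1 higher was *SLCO4C1* in Ago2-IP and in the score, against 1.65% and 2.13%. In the *miR-195* score 2 were higher, *MTCH2* and *CLN3*, against 6.72%. In these comparisons 0 were lower, and nothing is drawn from counts this small.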
